A study of Mus musculus with 18 samples.

Results

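The comparison described here asks whether the effect of dietary folic acid (FA) on gene expression differed between dysplastic and non-dysplastic colonic epithelium. It was taken as the dose effect in polypoid dysplasia (P), 8P vs 0P, minus the dose effect in non-dysplastic epithelium (ND), 8ND vs 0ND, on the log2 scale, and is called the interaction. All 18 libraries of the series entered it, and 20787 of 55453 gene names had enough counts to be tested. A negative interaction means that the fold change from 0 to 8 mg/kg FA was lower in P than in ND, and a positive one that it was higher in P.

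All groups came from female Swiss Webster mice that received azoxymethane (AOM), a colon carcinogen, by injection when 7 weeks old. To induce colitis they were given dextran sulfate sodium (DSS), an irritant of the gut lining, from 9 weeks of age in 4 cycles of 7 days at 2% in the drinking water and 14 days of plain water. The mice ate chow with 2 mg/kg FA until 11 weeks of age and then chow with 0 or 8 mg/kg FA for 16 weeks, until tissue was taken at 27 weeks. The 4 groups were 0ND (n = 4), 8ND (n = 5), 0P (n = 4) and 8P (n = 5), named by FA dose and tissue, and every group had been through AOM and DSS. Cells were cut by laser microdissection (LMD) from fixed, embedded colons in areas chosen by histology, and 40 ng of total RNA went into each library. The labels do not tie libraries to mice, so it is not known whether ND and P libraries came from the same animals, and p-values measure the spread between these libraries only.

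Folate carries the one-carbon units used to make nucleotides and to form the methyl donor for DNA methylation. In colon tumors of AOM-treated mice, beta-catenin is commonly stabilized, and the Wnt pathway then drives its target genes in the dysplastic epithelium. Fetal-type genes and stress pathways are also commonly raised in injured and dysplastic gut epithelium.

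Total counts on genes ran from 3500947 to 17048524 per library. The 12 markers that define colon epithelium were detected in every group. Their summed levels were 3962 to 6036 CPM (read counts scaled to library size) in 0ND and 3628 to 6070 CPM in 8ND. In P they were 3437 to 5172 CPM in 0P and 3061 to 4261 CPM in 8P. Medians of the sum were 5566 CPM in 0ND, 5083 CPM in 8ND, 4323 CPM in 0P and 3125 CPM in 8P. The median was thus lower at 8 mg/kg in both tissues, and its part in the results below was not tested. Of the uniquely aligned reads, the share that fell on no gene had a median of 63.6% in 0ND and 63.3% in 8ND, compared with 60.6% in 0P and 65.8% in 8P, so this measure of library make-up moved with the interaction.

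No gene had an interaction past an adjusted p of 0.05 in the quasi-likelihood test of edgeR, and the smallest adjusted p was 0.22, shared by 10 genes. At an unadjusted p under 0.05 there were 2163 genes, which is 10.4% of those tested, with 1102 below 0 (5.30%) and 1061 above 0 (5.10%). DESeq2 on the same counts put 80 genes past the threshold, or 0.495% of the 16168 it tested, with 70 below 0 and 10 above 0, whereas limma-voom put none. Leaving out library 8ND 3 put 26 genes past the threshold (0.125%), 25 of them below 0, and 19 of these were among the 80 of DESeq2. Without 0P 1 the count was 2 (0.00943%), and without a filter on low counts it was 1, Cers3 (0.00215%). The median standard error (SE) was 0.34 for the interaction, compared with 0.24 for each dose effect, so the test of the difference was less precise than the test of either dose effect alone.

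The median interaction over all genes was -0.01, with quartiles at -0.30 and 0.27, but the tails were not alike. Among the genes below 0 at an unadjusted p under 0.05, the median interaction was -0.81, the lowest was -6.01 and 448 differed at least 2-fold. Among those above 0, the median was 0.69, the highest was 2.71 and 239 differed at least 2-fold. The dose effects in ND and in P had opposite signs for 968 of the 1102 genes below 0 (87.8%) and for 996 of the 1061 above 0 (93.9%), compared with 50.7% of all genes. The dose effect was the larger one in ND for 67.1% of the genes below 0 and for 43.4% of those above 0, compared with 47.8% of all genes. These genes were picked by the difference of the same dose effects, and such a choice favors opposite signs. The shares are therefore descriptions.

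**Figure D1:**
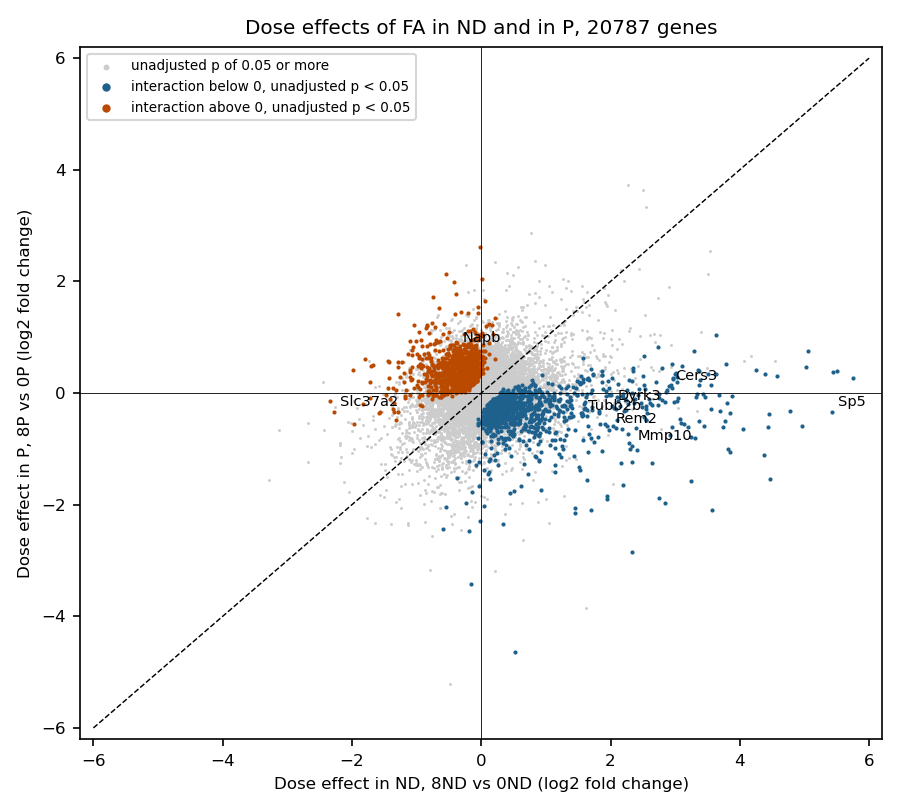
Dose effect of FA in P (vertical axis, log2 fold change, 8P vs 0P) against the dose effect in ND (horizontal axis, log2 fold change, 8ND vs 0ND), with 1 point per gene and the dashed line where both are equal. Blue points have an interaction below 0 and orange points above 0 at an unadjusted p under 0.05, and the blue points reach further from the origin along the horizontal axis than the orange ones. In all, 2 genes lie outside the plotted range.

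The 10 genes with the smallest p among negative interactions, at a mean level of at least 1 CPM, are described first. In 9 of the 10 the dose effect was larger in ND than in P, compared with 47.8% of all genes. In 7 of the 10 the library levels of 0ND and 8ND did not overlap, as they did not for 3.94% of all genes tested, and in 1 of the 10 those of 0P and 8P did not overlap (2.25% of all genes). Since these genes were ranked by p-values that use the same levels, the counts are descriptions.

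Cers3 encodes a ceramide synthase that uses very-long-chain acyl groups, and its gene lies at chr7:66743504-66823691 in mm10. Its level in TMM-scaled CPM was 0.382, 0.353, 0.7104 and 0.108 in 0ND and 3.595, 3.25, 2.79, 2.67 and 2.47 in 8ND. In P it was 5.99, 9.54, 14.3 and 14.4 CPM in 0P and 12.2, 9.80, 16.2, 8.37 and 13.6 CPM in 8P. All 8ND libraries were above all 0ND libraries and below all P libraries, while 0P and 8P overlapped. The log2 dose effect was 2.91 in ND and 0.12 in P, giving an interaction of -2.78 ± 0.48 (SE), with an adjusted p that ran from 0.00083 with DESeq2 to 0.51 over the alternatives.

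Tubb2b, a beta-tubulin gene with close paralogs whose reads may be shared, lies at chr13:34126748-34130466. Its level was 1.27, 1.94, 0.8289 and 0.9745 CPM in 0ND, and 5.81, 2.54, 2.79, 2.67 and 4.21 CPM in 8ND. In 0P it was 13.2, 19.7, 14.1 and 14.1 CPM, and in 8P 10.3, 12.6, 11.5, 13.8 and 9.37 CPM. Every 8ND library exceeded every 0ND library, whereas 4 of the 5 8P libraries were below all 0P libraries. The interaction was -1.97 ± 0.37.

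Dyrk3, a kinase gene at chr1:131127455-131138340, had an interaction of -2.26 ± 0.44. Rem2, a gene for a small GTPase that inhibits calcium channels, lies at chr14:54476100-54480431 and had an interaction of -2.63 ± 0.52. Both were under 1 CPM in every 0ND library, between 1.07 and 4.70 CPM in 8ND, and at 4.79 CPM or more in every P library.

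Mid1ip1, which promotes fatty acid synthesis by activating acetyl-CoA carboxylase, differed from the other 9 in that the larger dose effect was in P. Its level at chrX:10715013-10719690 was 52.5, 47.2, 51.2 and 64.0 CPM in 0P and 38.4, 41.4, 32.7, 33.8 and 29.4 CPM in 8P. In ND it was 27.9, 42.2, 32.3 and 33.1 CPM at 0 mg/kg and 45.8, 36.0, 46.1, 43.5 and 39.7 CPM at 8 mg/kg. All 8P libraries were below all 0P libraries, while the ND groups overlapped, and the interaction was -0.93 ± 0.19.

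Mmp10 encodes a matrix metalloproteinase and lies at chr9:7502352-7510240. It was at 1.21, 0.882, 1.30 and 1.41 CPM in 0ND and 11.5, 7.29, 2.68, 2.67 and 6.16 CPM in 8ND, compared with 16.1 to 74.5 CPM in 0P and 13.9 to 28.4 CPM in 8P. The interaction of -3.27 ± 0.65 combined a log2 dose effect of 2.33 in ND with one of -0.94 in P. The 8ND libraries lay above all 0ND libraries, while 0P and 8P overlapped.

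Sp5, a transcription factor gene induced directly by Wnt signaling, lies at chr2:70474923-70477729. Only 2 reads were counted over all 0ND libraries, both in 0ND 1, so the fitted interaction of -5.76 ± 1.15 depends on the prior count of the fit. With at least 3 counts assumed over the group, the interaction was -5.45. Its level was 5.53, 4.52, 0.107, 1.60 and 1.23 CPM in 8ND, 11.1, 18.6, 22.9 and 18.4 CPM in 0P and 14.2, 17.6, 10.3, 17.9 and 9.93 CPM in 8P. The ratio of 8ND to 0ND, from summed counts, was 53.1 with an exact 95% interval from 14.4 to 444 that covers counting error only, while that of 8P to 0P was 0.808. Library 8ND 3 was at the 0ND level. B4galnt4, a glycosyltransferase gene at chr7:141061104-141072400, and Lpcat4, a lysophospholipid acyltransferase gene at chr2:112239468-112247111, had interactions of -1.56 ± 0.32 and -1.71 ± 0.35, and in both 8ND exceeded 0ND with no overlap while 0P and 8P overlapped.

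TCF/LEF factors, the DNA-binding partners of beta-catenin, recognize the letters CTTTGAT. The window around the annotated start of Sp5, a member of the Wnt list described below, is shown because it holds this motif. It is the RefSeq window of GRCm38.p6 from 250 bases before to 50 bases after the start, chr2:70474673-70474972 on the plus strand, with the motif in capitals.
Sp5: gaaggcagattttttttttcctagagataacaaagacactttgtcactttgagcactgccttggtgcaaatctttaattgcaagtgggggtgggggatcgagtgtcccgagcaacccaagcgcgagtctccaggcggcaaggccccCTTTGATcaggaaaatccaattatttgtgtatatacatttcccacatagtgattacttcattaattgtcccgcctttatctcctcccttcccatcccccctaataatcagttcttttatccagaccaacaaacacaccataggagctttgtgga
The same motif on the opposite strand stood in the window of Tnfrsf19, a TNF receptor gene of the same list, at chr14:61037938-61038237 on the minus strand.
Tnfrsf19: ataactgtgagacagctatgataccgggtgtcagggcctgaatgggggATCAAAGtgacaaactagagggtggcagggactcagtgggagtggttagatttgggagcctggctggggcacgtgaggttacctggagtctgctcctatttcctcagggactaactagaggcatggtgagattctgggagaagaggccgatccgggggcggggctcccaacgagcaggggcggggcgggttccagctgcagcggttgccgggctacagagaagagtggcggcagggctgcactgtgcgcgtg
In Sp5 the motif began 104 bases before the start, and in Tnfrsf19 202 bases before it. Over all RefSeq windows, 3.7% held CTTTGAT or ATCAAAG. Windows were found for 28 of the 45 tested Wnt genes, under 80%, so no share was read for the list, and of their 36 windows only these 2 held the motif. Another motif, CCCGGG, was searched as well, and no share was read for it either.

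The 10 genes with the smallest p among positive interactions had smaller values, with interactions from 0.65 to 1.93. In 7 of the 10 the dose effect was larger in ND, compared with 47.8% of all genes. In 7 the 0ND and 8ND libraries did not overlap (3.94% of all genes), and in 1 the 0P and 8P libraries did not overlap (2.25%). These genes too were ranked by p-values that use the same levels, so the counts are descriptions. The most negative dose effect in ND was that of Slc37a2, which encodes a sugar-phosphate transporter of the endoplasmic reticulum and lies at chr9:37227585-37255738. It was 89.3, 119, 81.5 and 191 CPM in 0ND and 28.5, 18.6, 40.0, 13.6 and 21.9 CPM in 8ND. In 0P it was 25.4, 12.9, 12.8 and 13.9 CPM, and in 8P 11.7, 15.9, 14.1, 9.15 and 13.3 CPM. Every 0ND library exceeded every other library, and 0P and 8P overlapped. The interaction was 1.93 ± 0.43, from log2 dose effects of -2.28 in ND and -0.34 in P.

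Napb, which encodes a vesicle fusion protein and lies at chr2:148693985-148732467, differed mainly in P. It was 5.55, 4.85, 5.08 and 5.79 CPM in 0P and 9.32, 8.38, 9.18, 7.88 and 11.5 CPM in 8P, with no overlap, and 9.17 to 10.6 CPM in 0ND and 5.05 to 9.35 CPM in 8ND. Its interaction was 1.18 ± 0.25. Slc25a36, a mitochondrial carrier of pyrimidine nucleotides at chr9:97074961-97111157, was 133 to 222 CPM in 0ND and 104 to 127 CPM in 8ND, and 62.8 to 106 CPM in 0P and 81.8 to 135 CPM in 8P. Its interaction of 1.03 ± 0.23 combined log2 dose effects of -0.56 in ND and 0.47 in P.

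The other positive genes were Sowahc (0.98 ± 0.24), Zfp608 (0.65 ± 0.17), Dcp1b, an mRNA decapping factor (0.67 ± 0.17), Hibadh, an enzyme of valine breakdown (0.78 ± 0.20), Kansl1l (0.65 ± 0.17), Cmc4, a small mitochondrial protein (1.45 ± 0.38), and Ppnr (0.81 ± 0.21). Ppnr lies within Tcf7l2 on the same strand and Cmc4 overlaps Mtcp1, so reads of these genes and their hosts cannot be told apart. Adjusted p-values of the 10 genes were 0.22 to 0.31 in edgeR.

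Of the 6 genes with the smallest p for 8ND vs 0ND, Cers3 and Slc37a2 are given above. The others were Phldb2, which anchors microtubules at the cell edge (-0.70 ± 0.15), Pmepa1, an inhibitor of TGF-beta signaling (-0.62 ± 0.21), Kyat1, an enzyme of tryptophan breakdown (1.08 ± 0.32), and the clock gene Per3 (0.83 ± 0.30). In Phldb2 the level was 27.4 to 35.5 CPM in 0ND and 47.1 to 56.9 CPM in 8ND, and 111 to 133 CPM in 0P and 105 to 135 CPM in 8P. Since they were chosen for the dose effect in ND, which enters the interaction, these values are descriptions.

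**Figure D2:**
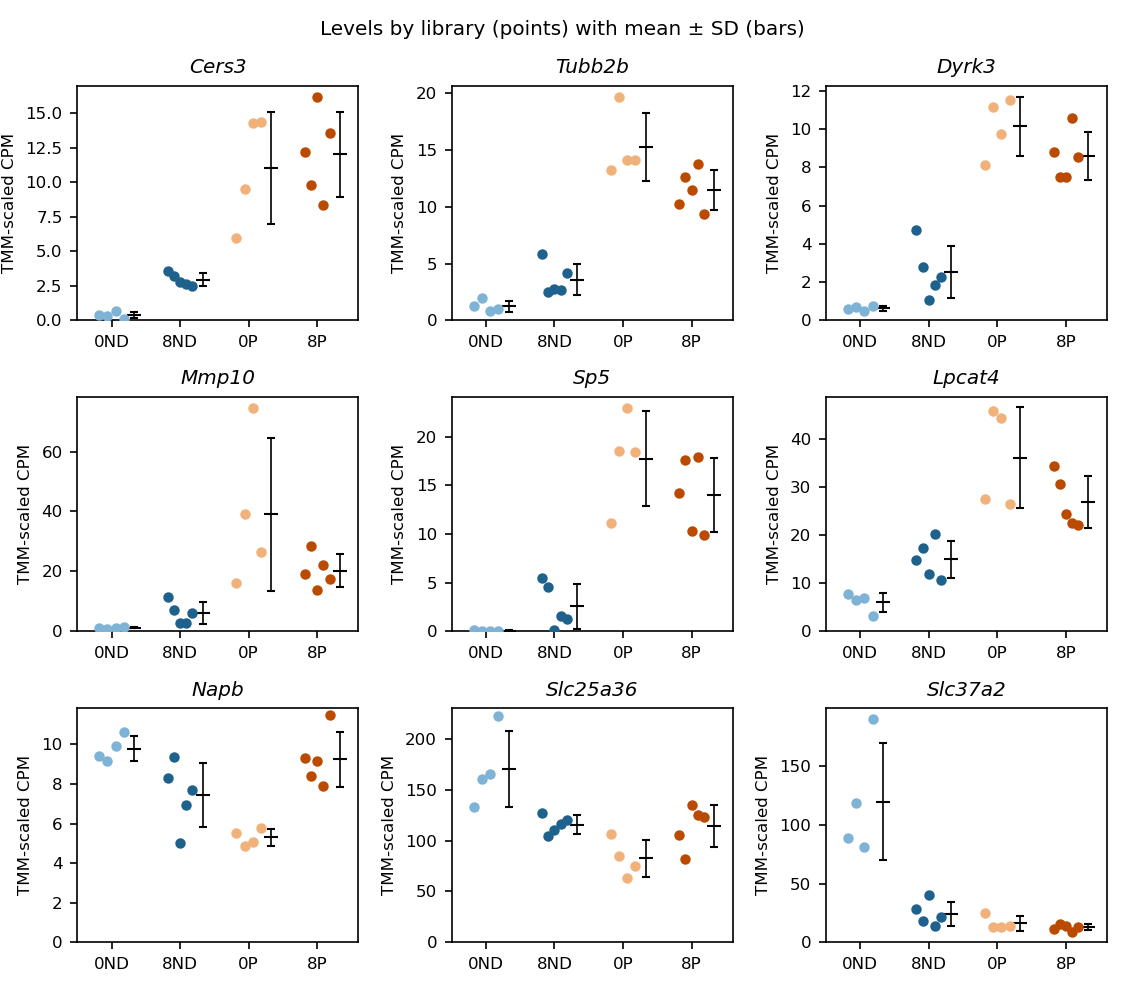
Level of 9 genes in each library (points, TMM-scaled CPM, linear axes from 0) in 0ND, 8ND, 0P and 8P, with the mean and SD of each group as bars. For Cers3, Tubb2b, Mmp10 and Lpcat4 all 8ND points lie above all 0ND points while 8P and 0P overlap, and for Napb the 8P points lie above the 0P points.

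Genes were next described by 36 lists, which were chosen with earlier results of these data known. For each list the count of members at an unadjusted p under 0.05 is read beside the 5.30% of all genes that were below 0 and the 5.10% that were above 0, and the median beside -0.01 over all genes. No member of any list passed the adjusted threshold in edgeR. Some genes are members of several lists, so the counts of different lists are not independent.

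Of 45 Wnt/beta-catenin targets tested, 25 were below 0 (55.6%) and none above, with a median interaction of -0.61. The median log2 dose effect was 0.56 in ND and -0.08 in P. The feedback inhibitors of the pathway included Axin2, a scaffold of the beta-catenin destruction complex (-1.09 ± 0.30), Notum, a secreted enzyme that inactivates Wnt ligands (-3.23 ± 1.04), Nkd1 (-2.21 ± 0.74), Wif1 (-3.13 ± 0.89) and the ubiquitin ligases Znrf3 (-0.60 ± 0.26) and Rnf43 (-0.58 ± 0.28), which remove Wnt receptors. Among growth regulators were Myc (-0.77 ± 0.21) and Ccnd1 (-0.65 ± 0.26). Ligands were Wnt6 (-2.36 ± 0.70) and Wnt10a (-2.83 ± 0.86).

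Axin2, at chr11:108920349-108950783, was 36.1, 58.4, 52.2 and 42.5 CPM in 0ND and 109, 97.4, 57.4, 75.5 and 81.5 CPM in 8ND. In 0P it was 290, 359, 389 and 533 CPM, and in 8P 353, 313, 269, 464 and 250 CPM. Library 8ND 3 was within the 0ND range and the other 4 were above it, and 0P and 8P overlapped. Myc, at chr15:61985391-61990374, was 18.1 to 24.5 CPM in 0ND and 28.4 to 35.7 CPM in 8ND without overlap, and 52.7 to 63.0 CPM in 0P and 41.6 to 70.6 CPM in 8P.

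The mean level of the list, relative to 0ND on the log2 scale, was -0.06 to 1.23 in 8ND with a median of 0.75, 1.89 to 2.23 in 0P and 1.81 to 2.15 in 8P. The 8ND libraries were thus spread between 0ND and P, with 8ND 3 at the 0ND level and 8ND 1 and 8ND 2 highest. Without 8ND 1 and 8ND 2 the count below 0 was 11 and the median -0.38, whereas leaving out any single library gave 19 to 27.

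MAPK/ERK targets and feedback genes, which respond to growth factor signaling, had 13 of 40 members below 0 (32.5%) and none above, with a median of -0.40. The transcription factors Fosl1 (-3.18 ± 0.78) and Etv5 (-1.54 ± 0.41), the receptor kinase gene Epha2 (-1.31 ± 0.32), the phosphatase genes Dusp6 (-0.44 ± 0.21) and Dusp10 (-0.82 ± 0.31) and the growth factor genes Tgfa (-0.55 ± 0.22) and Ereg (-2.62 ± 1.10) were among them. Etv5 was 22.9, 12.7, 17.5 and 14.2 CPM in 0ND, 52.0, 42.5, 19.96, 47.0 and 38.2 CPM in 8ND, 54.9, 144, 149 and 110 CPM in 0P and 116, 97.6, 64.5, 95.6 and 85.1 CPM in 8P. Again 8ND 3 alone of its group lay within the 0ND range. Without 8ND 1 and 8ND 2 the count was 8 and the median -0.23, and without 0P 3 the median was -0.27.

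Fetal and regenerative epithelium genes, which are expressed when injured gut lining is rebuilt, had 14 of 34 members below 0 (41.2%) and none above, with a median of -0.58. They included the keratin genes Krt23 (-2.39 ± 0.61) and Krt7 (-0.84 ± 0.29), the cytokine receptor gene Tnfrsf12a (-1.22 ± 0.32), the annexin gene Anxa2 (-0.75 ± 0.22), the alarmin gene Il33 (-1.33 ± 0.40) and the YAP target Ankrd1 (-2.02 ± 0.77). Clu, a marker of regenerating stem cells, had an interaction of 0.50 ± 0.82. Without 8ND 1 and 8ND 2 the count was 8.

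Cholesterol and fatty acid synthesis genes, which are driven by SREBP transcription factors, had 19 of 34 members below 0 (55.9%) and none above. The median interaction was -0.49, and unlike the Wnt list, the medians of the dose effects were of similar size, 0.34 in ND and -0.23 in P. The transcription factor gene Srebf1 (-0.76 ± 0.22) was among the 19, as were the fatty acid genes Fasn (-0.98 ± 0.22), Acaca (-0.32 ± 0.13), Scd1 (-1.15 ± 0.43) and Fads1 (-1.08 ± 0.41). Of the sterol pathway, Mvd (-1.06 ± 0.28), Sqle (-0.67 ± 0.20), Cyp51 (-0.65 ± 0.21) and Nsdhl (-0.51 ± 0.20) were below 0.

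Fasn, at chr11:120805846-120824547, was 143, 168, 134 and 145 CPM in 0ND and 217, 187, 208, 192 and 195 CPM in 8ND. In 0P it was 243, 320, 375 and 375 CPM, and in 8P 232, 292, 183, 265 and 159 CPM. The ND groups did not overlap, and in P only 8P 2 and 8P 4 lay above the lowest 0P library. The mean level of the list relative to 0ND was 0.14 to 0.44 in 8ND, 0.22 to 0.42 in 0P and -0.09 to 0.22 in 8P, and 8P 4 and 8P 5 were lowest in P. The count stayed between 14 and 22 in all alternatives.

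ATF4 and amino acid stress genes had 13 of 35 members below 0 (37.1%) and 1 above, with a median of -0.49. The transfer RNA synthetase genes Gars (-0.72 ± 0.17), Aars (-0.63 ± 0.19) and Nars (-0.48 ± 0.22), the asparagine synthetase gene Asns (-0.83 ± 0.26), the serine synthesis gene Psat1 (-1.26 ± 0.34), the proline synthesis genes Pycr1 (-1.48 ± 0.50) and Aldh18a1 (-0.66 ± 0.22) and the amino acid transporter genes Slc1a4 (-1.13 ± 0.29) and Slc7a5 (-0.91 ± 0.35) were below 0. Atf4 itself had an interaction of -0.28 ± 0.18. Gars was 57.0 to 69.0 CPM in 0ND and 72.3 to 90.8 CPM in 8ND without overlap, and 104 to 144 CPM in 0P and 80.3 to 115 CPM in 8P.

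Folate and one-carbon metabolism genes, the pathway that the diet feeds, were closer to the background. Of 42 tested, 6 were below 0 (14.3%) and 1 above, with a median of -0.12. The mitochondrial enzymes Aldh1l2 and Shmt2, which are also in the ATF4 list, had interactions of -1.19 ± 0.38 and -0.55 ± 0.24. Aldh1l2 was 1.95 to 3.57 CPM in 0ND and 6.18 to 7.21 CPM in 8ND without overlap, and 4.75 to 7.09 CPM in 0P and 2.60 to 7.33 CPM in 8P. Without 0P 1 the count below 0 was 11. Of 25 genes of the DNA methylation machinery, 4 were below 0 and 1 above, and the median was 0.06. Leaving out single libraries gave as few as 1 below 0. Dnmt1, the maintenance methyltransferase, had -0.36 ± 0.16, with 71.5 to 86.4 CPM in 0ND, 68.9 to 95.3 CPM in 8ND, 109 to 126 CPM in 0P and 79.5 to 104 CPM in 8P. All 8P libraries were below all 0P libraries for Dnmt1.

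**Figure D3:**
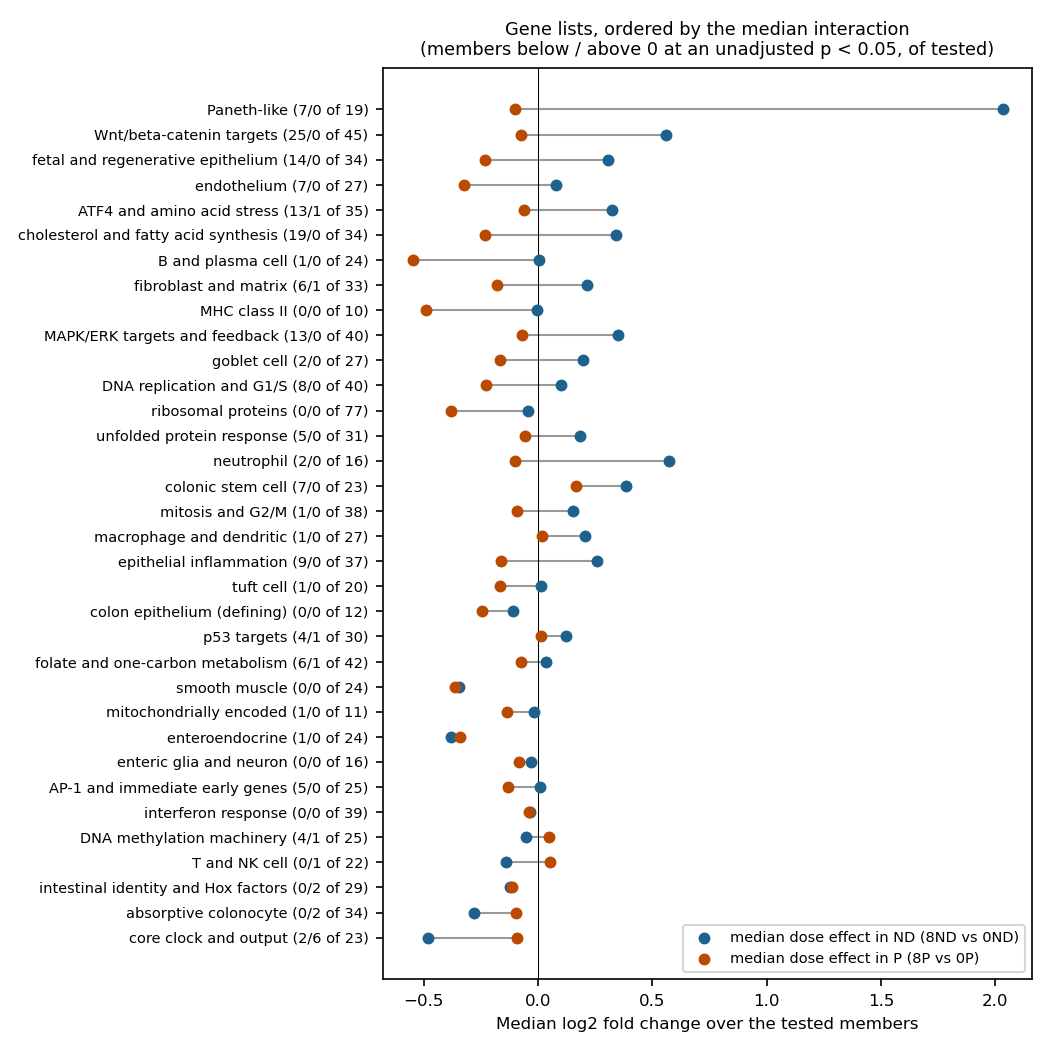
Median log2 dose effect in ND (blue) and in P (orange) over the tested members of 34 gene lists, ordered by their median interaction, with the number of members below and above 0 at an unadjusted p under 0.05. The Paneth-like list lies furthest to the right in ND, the Wnt list is at 0.56 in ND and -0.08 in P, the cholesterol and fatty acid list is positive in ND and negative in P, and the clock list is negative in ND.

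Paneth-like genes, a list that includes genes for antimicrobial proteins, had the most negative median, -2.38, with 7 of 19 members below 0. Not all members were low in 0ND, where the means of Mptx1, Lyz2, Guca2a and Kit were 258, 125, 94.6 and 57.0 CPM. Interactions of these genes were -0.07 ± 1.96, 0.11 ± 0.43, -0.25 ± 0.55 and 0.00 ± 0.32. Pla2g2a, a secreted phospholipase gene that overlaps Pla2g5 on the other strand, was 141, 125, 95.3 and 40.5 CPM in 0ND and 1187, 631, 480, 396 and 342 CPM in 8ND. In 0P it was 2431, 2258, 2536 and 3082 CPM and in 8P 2607, 3871, 1334, 2378 and 1836 CPM. The ND groups did not overlap and the P groups did, and the interaction was -2.70 ± 0.55. Mmp7, which activates defensins, was 0.217 to 2.80 CPM in 0ND and 1.83 to 35.5 CPM in 8ND, with an interaction of -3.46 ± 0.98. The defensin genes of the list have close copies and are uncertain. Without 8ND 1 the median was -1.36, and without 8ND 1 and 8ND 2 it was -0.47. The count was 4 without each of 0ND 2, 0ND 4, 0P 4 and 8ND 1.

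Colonic stem cell genes had 7 of 23 members below 0 (30.4%), with a median of -0.26. Among these 7, Sp5, Axin2, Tnfrsf19, Znrf3 and Rnf43 are also members of the Wnt list. Lgr5 (-1.30 ± 0.74), Smoc2 (-0.74 ± 0.58), Ephb2 (-0.22 ± 0.19), Ascl2 (-0.17 ± 0.40) and Sox9 (-0.11 ± 0.35) were not among the 7. The count was 2 without 8ND 1 and 8ND 2, 3 without 8ND 2, and 4 without each of 0ND 1, 0ND 4, 0P 2, 8ND 1 and 8P 5. DNA replication and G1/S genes had 8 of 40 below 0 (20%), and 36 of the 40 had a negative value. That count was 5 without each of 0ND 4, 0P 2 and 0P 4, and 13 without 0ND 2. Mitosis and G2/M genes had 1 of 38 below 0, and without 0ND 2 the count was 12.

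Core clock and output genes, which keep daily rhythms, stood at the positive end of the lists. Of 23 tested, 6 were above 0 (26.1%) and 2 below, with a median of 0.33 from dose effects of -0.48 in ND and -0.09 in P. The output genes Per3 (0.83 ± 0.30), Nr1d2 (1.06 ± 0.37), Ciart (1.42 ± 0.55) and Hlf (1.30 ± 0.51) were above 0, and Nfil3, which represses such genes, was below 0 (-1.22 ± 0.39). Per3 was 125, 85.9, 133 and 105 CPM in 0ND, 48.7, 46.9, 46.1, 54.5 and 30.9 CPM in 8ND, 56.1, 27.4, 31.8 and 25.7 CPM in 0P and 31.6, 27.4, 20.4, 21.9 and 24.5 CPM in 8P. Nr1d1, the paralog of Nr1d2, had an interaction of 0.01 ± 0.98 and Per1 of 0.04 ± 0.31. The hour at which tissue was taken is not given in the sources used here, and its part in the result was not tested. Absorptive colonocyte genes had 2 of 34 above 0 and none below, and 6 were above 0 without 0P 1.

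**Figure D4:**
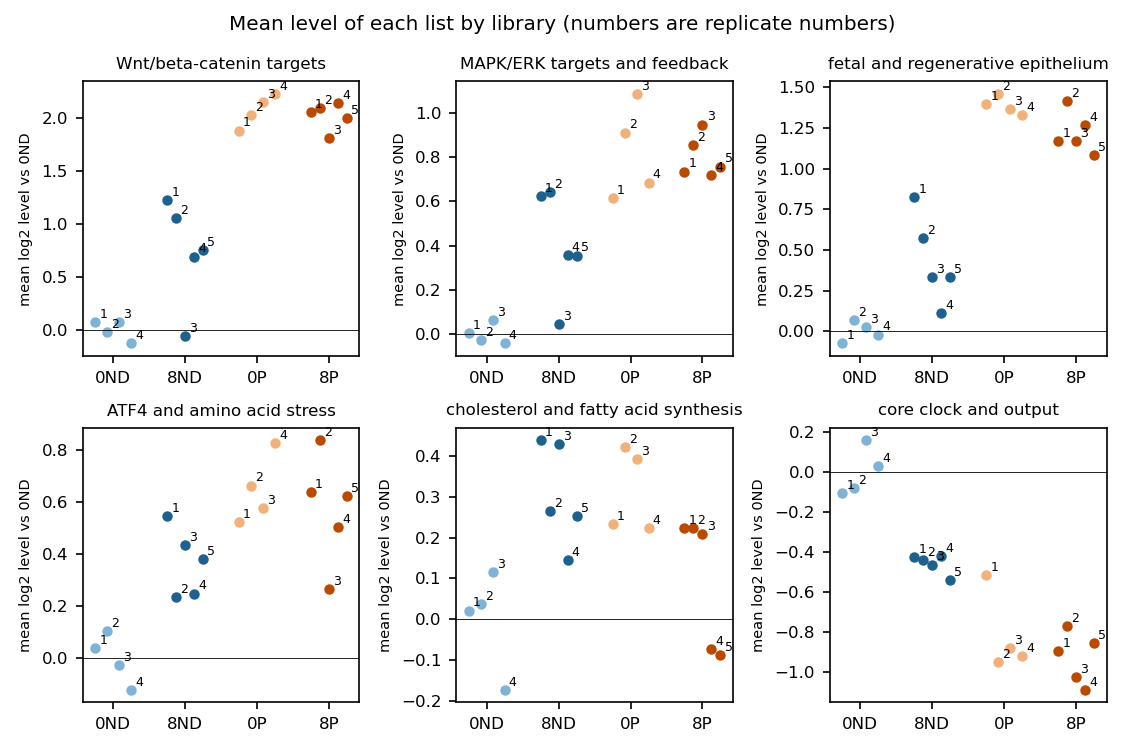
Mean level of 6 gene lists in each library, as the mean log2 level relative to 0ND, with replicate numbers beside the points. In the Wnt panel the 8ND libraries run from -0.06 to 1.23 while 0P and 8P lie between 1.81 and 2.23. In the cholesterol panel 8P runs from -0.09 to 0.22 and 0P from 0.22 to 0.42, and they overlap slightly, with 8P 1 just above 0P 4.

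LMD tissue can hold cells other than epithelium, and in bulk libraries fewer cells of a type and less RNA per cell cannot be told apart. Endothelium genes had 7 of 27 members below 0 (25.9%), with a median of -0.54, and this list includes Prox1, which is also a Wnt target. Prox1, Ecscr and Sox17, all among the 7, had means of 29.3, 5.91 and 3.62 CPM in 0ND. In 0P their means were 633, 36.8 and 51.4 CPM. Of the 27 members, 22 had a negative value, with Pecam1 at -0.20 ± 0.25. The others were Emcn (0.44 ± 0.34), Aplnr (0.25 ± 0.43), Kdr (0.09 ± 0.21), Tie1 (0.06 ± 0.32) and Flt1 (0.05 ± 0.17). The median log2 dose effect of the list was 0.08 in ND and -0.33 in P. The lymphatic genes Lyve1 (-1.33 ± 0.35) and Mmrn1 (-1.04 ± 0.29) had log2 dose effects of -1.21 and -1.22 in P, and 0.12 and -0.18 in ND. Lyve1 was 7.40, 13.5, 12.2 and 14.3 CPM in 0P and 6.003, 3.27, 4.96, 5.07 and 6.22 CPM in 8P, and Mmrn1 was 15.1, 13.5, 17.97 and 22.6 CPM in 0P and 7.41, 6.31, 6.17, 7.46 and 9.65 CPM in 8P. In both genes all 8P libraries were below all 0P libraries and the ND groups overlapped.

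For the 26 endothelium markers other than Prox1, the summed level was 417 to 484 CPM in 0ND and 408 to 519 CPM in 8ND. It was 418 to 534 CPM in 0P and 294 to 427 CPM in 8P, with none at 0 over a whole group. Fibroblast and matrix markers had 6 of 33 members below 0 (18.2%) and 1 above, with a median of -0.42, and their sum was 2938 to 3449 CPM in 0ND, 3485 to 4295 CPM in 8ND, 3937 to 4901 CPM in 0P and 2349 to 5884 CPM in 8P. Leaving out 8P 2 or 8P 5 gave 14 below 0. The medians of both sums were higher in 8ND than in 0ND and lower in 8P than in 0P, as in the negative interactions described above, and their part in those results was not tested. B and plasma cell markers had 1 of 24 members below 0 at p under 0.05, while 22 of the 24 had a negative value, with a median of -0.46. Their summed level was 3199 to 5627 CPM in 0ND, 3896 to 11291 CPM in 8ND, 1448 to 1861 CPM in 0P and 736 to 3649 CPM in 8P, with group medians of 3614, 5546, 1583 and 1483 CPM. The median of the sum was higher in 8ND than in 0ND and lower in 8P than in 0P, and its part in the results above was not tested. Without 0ND 1 the median interaction was -1.05 with 3 members below 0. It was -0.81 without 8P 2, -0.30 without 8P 5 and -0.16 without 8ND 3. Macrophage and dendritic markers had 1 of 27 below 0, and 7 without 8P 2. T and NK cell markers had no member below 0 and 1 above of 22, and 3 above without 0ND 4.

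Interferon response genes had 0 of 39 members at an unadjusted p under 0.05 in either direction, and 3 below 0 without 8P 2. Ribosomal proteins had 0 of 77 although 73 of these had a negative value, with a median of -0.33, and 11 were below 0 without 8P 4, 7 without 0ND 2, 6 without 8P 2 and 4 without 8ND 2. Smooth muscle markers had 0 of 24, and 3 below 0 without 0ND 2. MHC class II genes had 0 of 10 although all 10 had a negative value, with a median of -0.40. That median ran from -1.09 to 0.02 when single libraries were left out. Epithelial inflammation genes had 9 of 37 below 0 (24.3%) with a median of -0.19. The count was 5 without 8ND 1 and 8ND 2, and the median was -0.55 without 0ND 1 and -0.10 without 0ND 4. AP-1 and immediate early genes had 5 of 25 below 0 and p53 targets 4 of 30, and without 8ND 1 and 8ND 2 these counts were 3 and 2. Unfolded protein response genes had 5 of 31 below 0 with a median of -0.33. That count was 3 without each of 0ND 1, 0ND 4, 0P 4, 8ND 3 and 8P 3 and 9 without 8P 2, and the median was -0.12 without 0P 4 and -0.21 without 8P 3. With the share of uniquely aligned reads on no gene as a covariate, a fit added after the libraries were seen, the median of the ribosomal list was -0.01, while the Wnt and cholesterol lists had 24 and 21 members below 0 with medians of -0.63 and -0.60. That fit put no gene past the threshold and 2004 genes at an unadjusted p under 0.05.

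The study singled out 15 genes, a list chosen on these samples and so not independent evidence of a direction. Of these, 6 were below 0 and 2 above, with a median of -0.48. T, which encodes the mesoderm factor brachyury and is a Wnt target, had -3.83 ± 1.35, with 0 to 0.446 CPM in 0ND, 0 to 6.64 CPM in 8ND, 4.23 to 24.8 CPM in 0P and 3.10 to 18.2 CPM in 8P. Slc4a11, an ion transporter gene at chr2:130684113-130697519, had -2.32 ± 0.50. It was 0.765, 0.705, 1.78 and 0.758 CPM in 0ND, 4.43, 7.77, 3.01, 3.20 and 1.95 CPM in 8ND, 9.24, 17.4, 14.4 and 10.8 CPM in 0P and 12.6, 12.5, 7.72, 10.6 and 10.4 CPM in 8P, with no overlap in ND and overlap in P.

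Epha2 had -1.31 ± 0.32, with 8.48 to 11.96 CPM in 0ND, 11.0 to 28.1 CPM in 8ND, 31.2 to 51.2 CPM in 0P and 24.9 to 35.1 CPM in 8P. Thbs1 (-0.98 ± 0.33), Zfp703 (-0.70 ± 0.25) and Enc1 (-0.48 ± 0.19) were the others below 0. Neu1, a lysosomal sialidase gene (0.80 ± 0.23), and Fut9, a fucosyltransferase gene (1.54 ± 0.67), were above 0. Neu1 was 85.6 to 153 CPM in 0ND and 52.96 to 72.8 CPM in 8ND without overlap, and 33.1 to 51.7 CPM in 0P and 38.7 to 50.4 CPM in 8P. For the other 7, the 95% interval included 0, and it was narrowest for Atp11a, from -0.47 to 0.14. For Rims4 it ran from -1.34 to 1.43. Without 8ND 1 and 8ND 2 the count below 0 was 3, and without 0P 4 the median was -0.31.

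**Figure D5:**
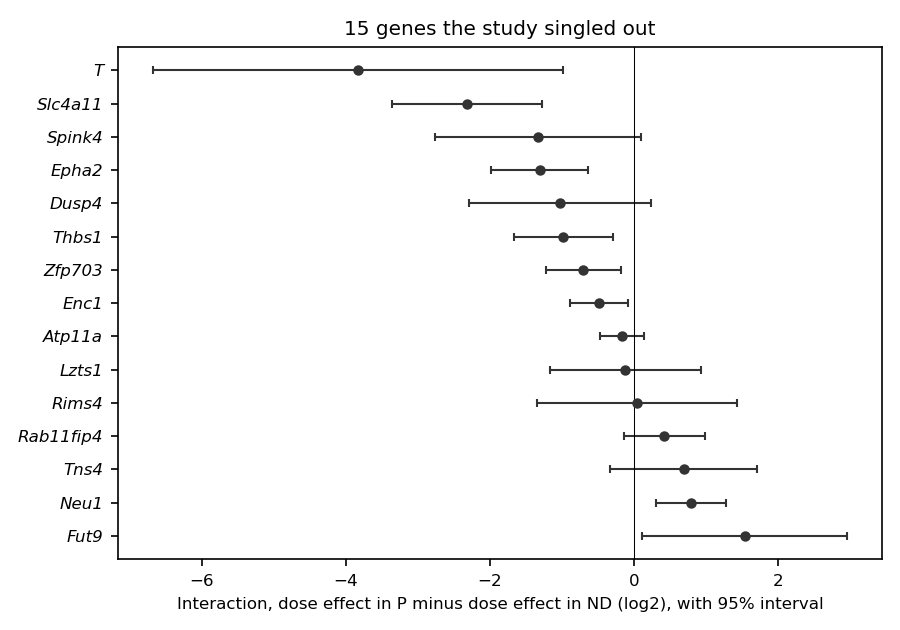
Interaction (log2, dose effect in P minus dose effect in ND) of the 15 genes the study singled out, with 95% intervals from the edgeR fit. Intervals of 6 genes lie wholly below 0 and those of Neu1 and Fut9 wholly above it.

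Of 411 genes with methylation differences in the study, 295 were tested here, and 32 were below 0 (10.8%) and 10 above (3.39%), with a median of -0.10. Without 8ND 1 and 8ND 2 the count below 0 was 20, and without 0ND 1 it was 21. Leaving out any single library gave 21 to 45 below 0 and 3 to 15 above 0. The count above 0 was 3 to 6 without each of 0ND 3, 0ND 4, 0P 2, 0P 3, 0P 4, 8ND 3, 8ND 4 and 8P 3, the lowest of them without 0P 3, and without 8P 2 the median was -0.17.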

How the data were processed

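RNA-Seq counts of 18 LMD libraries were used. The authors deposited unnormalized counts of reads, by gene name, in 1 table per library. Alignment was to mm10 by Bowtie and counting by HTSeq, per the labels and methods. Their versions, and whether counting used strand, were not given in the labels or methods, so reads of overlapping and antisense genes cannot be separated. Of the 55453 gene names, 54588 occur in GENCODE M21, from which positions were taken, and 5 summary lines that name no gene were left out. Those lines held 22.0 to 40.7% of reads per library on no gene, 40.1 to 62.2% without a unique alignment and 0.220 to 0.384% ambiguous. No molecular identifiers are mentioned, so counts include PCR copies. The exact interval of the Sp5 ratio covers counting error only, while the 95% intervals from the edgeR fit include the spread between libraries.

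Testing used edgeR 4.0.16 in R 4.3.3. The filter was filterByExpr with groups and a count minimum of 10, scaling was by TMM, and a single robust quasi-likelihood model with group means was fitted to all 18 libraries. The interaction was the contrast described above, with Benjamini-Hochberg adjustment over 20787 genes and a threshold of 0.05. SE is the size of the log2 value divided by the square root of F. Levels are TMM-scaled CPM, and summed marker levels are sums of CPM over a list. Within groups, the chi-square per gene between libraries was 10.4 or more in all 32 pairs, so none was counted as a repeat. The procedure was also run on simulated counts with known interactions. That outcome is not given here and is not used as support for any result.

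The genes named were the 10 smallest p-values in each direction at a mean of at least 1 CPM without unnamed gene models or pseudogenes, up to 3 members per list by p, the study's 15 genes and the 6 smallest p-values of 8ND vs 0ND. Some genes that the rule takes are counted but not reported here. Other list members were added after their values were seen. The members and the 36 lists were chosen with earlier results of these data known. The 28 alternatives, with effects given below, were other scalings (RLE, library totals only), other filters, DESeq2 1.42.0, limma-voom (limma 3.58.1), a fit without robust estimation, a replicate block, each library left out, and 8ND 1 and 8ND 2 left out together, with a covariate added later.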

Additional observations from a re-analysis of the deposited data

Results flagged for a closer look

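The 20 genes with the smallest p were checked for libraries far from the rest of their group. In 80 checks of a gene in a group, 5 libraries stood apart by Dixon's criterion, and chance flags about 1 in 20 groups. Slc37a2 was 25.36 CPM in 0P 1, compared with 12.76 to 13.87 CPM in the other 0P libraries. Kansl1l was 33.49 CPM in 8ND 3, compared with 39.54 to 41.71 CPM in the other 8ND libraries. Tubb2b was 19.7 CPM in 0P 2, compared with 13.21 to 14.13 CPM in the others. Rem2 was 4.792 CPM in 8P 3, compared with 8.63 to 9.707 CPM in the others. Sp5 was 0.1274 CPM in 0ND 1 and 0 in the other 0ND libraries, a difference of 2 reads.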

How the results depend on the processing

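The count of genes past the threshold was 0 in 24 of 28 alternatives, and was 80 with DESeq2 (59 at least 2-fold), 1 without a filter on low counts (1 at least 2-fold) and 0 to 26 when single libraries were left out (0 to 26 at least 2-fold), where 2 came without 0P 1 and 26 without 8ND 3. The count at an unadjusted p under 0.05 was 3343 without the filter and 1555 to 3357 when single libraries were left out, the lowest without 8P 3 and the highest without 8P 2. With the replicate block, no gene passed, the smallest adjusted p was 0.0595 and 1803 genes had an unadjusted p under 0.05. Same-numbered ND and P libraries had deviations that correlated between -0.08 and 0.27, with 4 of 9 pairs over 0.1. Libraries of the same dose with different numbers correlated between -0.25 and 0.21. Of these, only 8ND 2 with 8P 3 (0.18) and 8P 5 (0.12) and 8ND 3 with 8P 2 (0.21) were over 0.1. For 4 of the 9 ND libraries the best match was the P library of the same number. These values do not settle whether the numbers pair the samples, and the main fit did not use them.

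Of 131 named genes, 129 kept their direction in all 28 alternatives and 28 passed the threshold in at least 1. Lzts1, at -0.12, was -0.35 to 0.35 when single libraries were left out, above 0 without 0ND 4, 0P 4 or 8ND 3, and 0.28 with the covariate. Rims4, at 0.05, was -0.039 with limma-voom, -0.034 without 8ND 1 and 8ND 2 and -0.18 to 0.43 without single libraries. The cause was not tested. Other scalings put the median of all genes at -0.02 (RLE) and 0.01 (library totals). Depth limits low genes most: 94 tested genes had at most 3 counts over a group.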
